A study of Rattus norvegicus with 6 samples.

Results

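The heat shock proteins, the DnaJ cochaperones and the heat shock factors were followed in alveolar tissue, taken from where the jaw holds the teeth, of rats undergoing orthodontic tooth movement. Members were the rows of the count table whose gene symbol starts with Hspa, Hspb, Hspd, Hspe, Hsph or Hsp90, with Dnaja, Dnajb or Dnajc and a number, or with Hsf and a number. Of 95 symbols that matched, 6 were left out by rule, namely Hspbp1, an exchange factor of Hsp70, and Hspa5, Hsp90b1, Dnajb9, Dnajb11 and Dnajc3, which serve the endoplasmic reticulum, which gave 89 members of 37203 genes. They comprised 13 genes of the Hsp70 and Hsp110 class, 2 of the Hsp90 class, 2 chaperonin genes, 8 small heat shock genes, 4 Dnaja, 11 Dnajb and 27 Dnajc genes and 4 heat shock factors. The other members were Hspbap1 and Hsf2bp, which are named for proteins that bind a member, and 16 rows named as pseudogenes of Hspd1.

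Titles split the 6 libraries of total RNA into a case group, numbered 5, 6 and 9, and a control group, numbered 5, 6 and 10. The source field places tooth movement without corticision, a surgical cut into the cortical bone, on the case libraries, and tooth movement with corticision on the control libraries. In their usual sense these labels contradict each other, so title names are kept here and differences are taken as case minus control. Strain, age, sex and duration of tooth movement are not given in the labels, nor is it said whether each library came from its own animal, so p-values measure the spread between libraries, which may be technical.

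Heat shock proteins are chaperones that hold, fold or disaggregate other proteins. Hsp70 proteins bind unfolded stretches in a cycle driven by ATP, J-domain proteins of the DnaJ families deliver clients and speed that cycle, Hsp110 proteins exchange the nucleotide, and Hsp90 acts later on kinases and steroid receptors. On protein-damaging stress, heat shock factor 1 binds heat shock elements in promoters and raises the inducible members, while many other members are made at all times.

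The libraries held 11745453 to 14433740 counts in case and 10886303 to 13727508 counts in control. Levels are given as CPM, the counts scaled to a common library size after adjustment by TMM (trimmed mean of M-values), and in bulk tissue fewer cells of a type and less RNA per cell cannot be told apart. The 10 osteoblast and bone matrix markers took 6.47% to 13.3% of counts in case and 8.44% to 10.8% in control. The collagen genes Col1a1 and Col1a2 made up most of that sum. Among the other markers, Bglap was at 2417 to 5963 CPM in case and 3190 to 4929 CPM in control. Ibsp was at 2046 to 2638 CPM in case and 1959 to 3727 CPM in control. Case 5 and control 5 were together the highest 2 of the 6 libraries in 6 of 66 tested members and the lowest 2 in 10, which is 9.09% and 15.2% against 19.9% and 17.9% of all tested genes. The members as a whole took 0.282%, 0.303% and 0.329% of all counts in case 5, 6 and 9, against 0.299%, 0.258% and 0.281% in control 5, 6 and 10.

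No member passed the test over all genes. A filter on low counts kept 66 of the 89 members among 16066 genes, and the edgeR quasi-likelihood test with Benjamini-Hochberg adjustment called 0 of them at a threshold of 0.05, where 0% of all tested genes were called. The smallest adjusted p of a member was 0.999. At an unadjusted p under 0.05 edgeR gave 1 member, lower in case, against 4.15% of all tested genes, made up of 1.88% higher and 2.27% lower in case, and DESeq2 and limma-voom also gave 1 unadjusted and 0 adjusted, where they called 0.131% and 0% of all genes after adjustment. In 5 members no case library reached into the control range, against a background of 8.52%. All 5 were lower in case, a direction that held for 4.43% of all tested genes, while 0 members were separate and higher in case against 4.1%. These counts are for TMM, and other scalings gave 1 member separate and higher in case, Dnajc24 with the size factors of DESeq2 or library totals and Hspbap1 with upper-quartile scaling. The members separate and lower in case then numbered 5 with the DESeq2 factors or the upper quartile and 3 with library totals.

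Fold changes of the members were small. Of the 66 tested members 27 had a positive and 39 a negative log2 fold change, with a median of -0.06 against -0.02 over all tested genes, of which 46.3% were positive. With counts scaled by library totals the split was 33 and 33. The log2 fold change lay within 0.2 of 0 in 41 members, and the 95% interval lay inside a 2-fold change either way in 48. The median coefficient of variation within groups was 19.1% over the tested members and 21.4% over all tested genes.

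**Figure D1:**
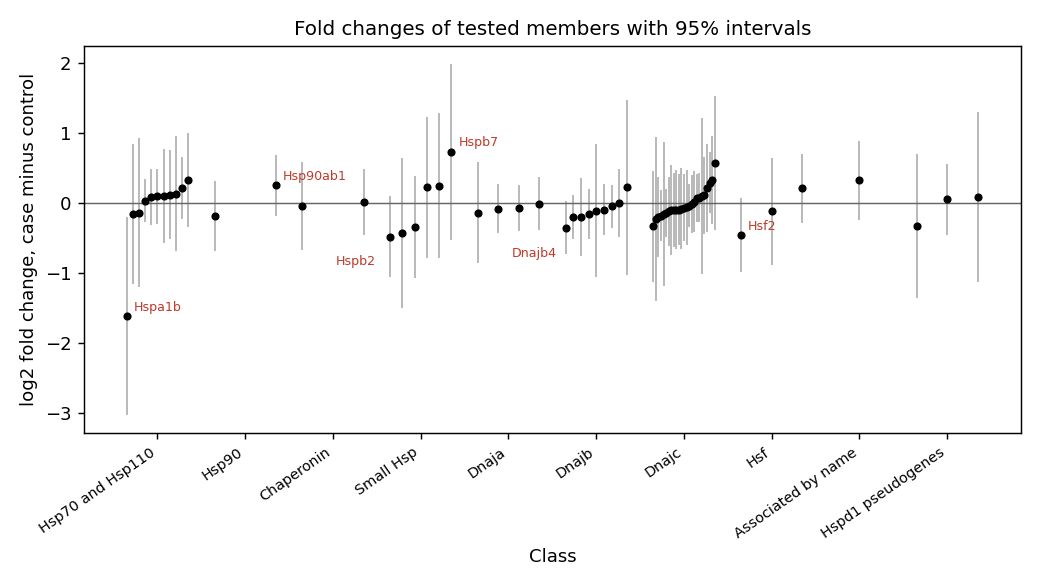
Log2 fold change (case minus control) of each of the 66 tested members, grouped by class along the horizontal axis; points are edgeR estimates and bars 95% intervals. Hspa1b, at -1.62, is the one member whose interval does not reach 0, and most other points lie close to 0.

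Promoter sequences are shown because they carry the letters that heat shock factors read. Sequences came from RefSeq (build GRCr8), in which 56 of the 89 members had an entry, and the 250 bases before the annotated start were searched on both strands for 2 adjoining inverted units of the heat shock element, GAANNTTC or TTCNNGAA, and for the form of 3 alternating units at the same spacing, which holds both shorter ones. The 2-unit form was present in 15 of the 56 members (26.8%) and in 13.5% of all 33469 promoters of the table, and the 3-unit form in 4 members (7.14%) and in 0.663% of all promoters. The 4 members with 3 units were Hspa8, Hspd1, Hspe1 and Hsph1. Hspd1 and Hspe1 lie head to head, and their windows share the same stretch. A match is a run of letters and not a proven site. The stretches below are given 5′ to 3′ on the strand of the gene, with the matched letters in capitals, for 5 members of the inducible set described afterwards.
Hspe1, chr9:64084256-64084285, plus strand: gctcggTTCTAGAACCTTCCGGAAggcccc
Hsph1, chr12:10427251-10427356, plus strand: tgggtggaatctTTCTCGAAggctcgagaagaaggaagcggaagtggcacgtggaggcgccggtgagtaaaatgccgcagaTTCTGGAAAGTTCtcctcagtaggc
Hspa8, chr8:50080289-50080483, plus strand: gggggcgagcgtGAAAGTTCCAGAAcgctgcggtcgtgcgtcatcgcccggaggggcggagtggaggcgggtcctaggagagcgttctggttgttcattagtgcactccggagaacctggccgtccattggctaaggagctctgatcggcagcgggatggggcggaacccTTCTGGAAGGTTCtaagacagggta
Hspb1, chr12:26432391-26432442, minus strand: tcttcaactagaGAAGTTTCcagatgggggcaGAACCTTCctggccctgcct
Dnajb1, chr19:41431142-41431164, minus strand: tcgggaggggcgGAAGGTTCtgg
Of the 14 tested members with a 2-unit match, 8 had a positive and 6 a negative log2 fold change, with a median of 0.05 and a range of -0.43 to 0.32. Of the 33 tested members with a promoter entry and no match, 13 were positive and 20 negative, with a median of -0.05. Dnaja1, also of the inducible set, had 1 match of the 2-unit form, which is not printed. Among the members without the 2-unit match were Hspa1a, Hspa4l, Hsf2 and Hsp90ab1. That absence holds for these exact letters in the 250 bases before the annotated start. It does not show that a gene lacks heat shock elements.

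The heat shock factors, the transcription factors of the response, had 3 tested genes, and Hsf2 stood lower in case. Hsf2, a factor that can pair with heat shock factor 1, was at 8.61, 8.96 and 7.22 CPM in case 5, 6 and 9, against 10.3, 10.1 and 13.8 CPM in control 5, 6 and 10. The groups did not overlap, although the gap between case 6 and control 6 was small. The log2 fold change was -0.46 (SE 0.23) with an unadjusted edgeR p of 0.0794, and without control 10 it was -0.27. Hsf1, the main stress-activated factor, was at 40.7, 39.2 and 59.2 CPM in case 5, 6 and 9, against 47.1, 36.1 and 37.6 CPM in control 5, 6 and 10. The high value of case 9 set its positive log2 fold change of 0.20, which was -0.012 without that library. Hsf4, known from the lens, was at 3.83 to 7.13 CPM in case and from 4.93 to 7.40 CPM in control. Hsf5, known from germ cells, had 2, 1 and 0 counts in case 5, 6 and 9 and 0 counts in every control library, which allows up to 0.236 to 0.274 CPM for counting error alone.

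The stress-inducible Hsp70 genes were nearly silent in the counts, and Hspa1b held the one unadjusted p under 0.05. Hspa1a and Hspa1b encode the nearly identical inducible Hsp70 proteins, so that reads may have been split between them or set aside, and the counting rule is not given in the sources used here. Hspa1a had 1 count in case 5 and 0 in the other 5 libraries. Hspa1b had 3, 9 and 7 counts in case 5, 6 and 9, against 29, 12 and 11 counts in control 5, 6 and 10, or 0.239, 0.598 and 0.587 CPM against 2.52, 0.943 and 1.003 CPM. Every case library lay below every control library, and control 5 stood well above the other control libraries. Hspa1b averaged 0.475 ± 0.204 CPM in case and 1.49 ± 0.896 CPM in control, where here and in all later means ± gives the SD (n = 3), and the log2 fold change was -1.62 (SE 0.60). Its unadjusted edgeR p was 0.0295 and the adjusted p 0.999. With 1 library left out in turn the unadjusted p ranged from 0.032 (without control 6) to 0.122 (without control 5), being also over the threshold without case 5 (0.0953), case 6 (0.0534) or case 9 (0.0569), and the log2 fold change was -1.01 without control 5 and -0.66 without both libraries numbered 5. Control 5 was also the library with the highest summed level of 14 immediate early genes. They were at 446, 617 and 521 CPM in case 5, 6 and 9, against 826, 534 and 572 CPM in control 5, 6 and 10. Case 6 thus lay above control 6 and control 10. Of the 14 fold changes 13 were negative, where 46.3% of all tested genes were positive. The part of these genes in the Hspa1b value was not tested. The third gene of this cluster, Hspa1l, known from testis, was not tested and had 7, 8 and 9 counts in case 5, 6 and 9 against 0, 11 and 14 in control 5, 6 and 10.

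The constitutive and mitochondrial Hsp70 genes and the Hsp110 genes did not separate the groups. Hspa8, the Hsc70 protein made in every cell, was at 35.1, 23.9 and 35.6 CPM in case 5, 6 and 9, against 18.4, 36.8 and 33.02 CPM in control 5, 6 and 10. Case 6 and control 5 were the low libraries, 1 in each group. The level of Hspa8 is uncertain, because RefSeq (GRCr8) lists 33 pseudogenes of it whose rows the count table does not hold, and reads that match several copies may be missing. Hspa9, the mitochondrial Hsp70, averaged 58.6 ± 11.9 CPM in case and 50.7 ± 6.28 CPM in control, a log2 fold change of 0.21 (SE 0.19) that was 0.079 without case 5 and 0.35 without case 9. Hspa4, an Hsp110-type exchange factor, was nearly level over all 6 libraries, at 129 to 143 CPM in case and at 123 to 142 CPM in control. Its 95% interval of the log2 fold change ran from -0.28 to 0.34. Hsph1, the inducible Hsp110, was at 55.8, 31.1 and 67.5 CPM in case 5, 6 and 9, against 49.3, 42.4 and 50.7 CPM in control 5, 6 and 10. Both the highest and the lowest of its 6 values were case libraries.

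The remaining Hsp70-class genes had log2 fold changes from -0.16 (Hspa12a) to 0.32 (Hspa2). Hspa4l, a stress-linked relative of Hspa4, and Hspa13, an Hsp70-like protein of microsomes, were both high in the libraries numbered 5. Hspa4l was at 9.33, 4.38 and 5.96 CPM in case 5, 6 and 9, against 11.7, 5.89 and 4.10 CPM in control 5, 6 and 10. Hspa13 was at 13.1, 7.63 and 5.37 CPM in case 5, 6 and 9, against 9.23, 6.91 and 7.75 CPM in control 5, 6 and 10. In both genes the range within a group was wider than the difference between the group means. Hspa2, known for its part in spermatogenesis, was at 9.73 to 16.3 CPM in case and at 7.92 to 11.8 CPM in control, and its groups overlapped. Of 10 male germ cell markers Prm1, Prm2, Tnp1, Tnp2, Acrv1, Akap4 and Pgk2 had no count in any library, Odf1 had 1 count and Spata18 42 counts in all, and Ldhc had 106, 320 and 239 counts in case 5, 6 and 9 against 52, 199 and 160 in control 5, 6 and 10. Hspa14, a ribosome-bound Hsp70, and Hspa12b, known from endothelium, had fold changes of 0.09 and 0.08 on the log2 scale.

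Hsp90ab1, the constitutive cytosolic Hsp90, took the largest part of the members' counts in every library. It was at 979, 1143 and 1285 CPM in case 5, 6 and 9, against 938, 934 and 996 CPM in control 5, 6 and 10. Case 6 and case 9 lay above all control libraries, and case 5 lay below control 10. The log2 fold change was 0.25 (SE 0.19) with a 95% interval of -0.19 to 0.69 and an unadjusted edgeR p of 0.23, and was 0.15 without case 9 and 0.37 without case 5. The 8 of 10 erythroid markers in the table summed to 7755, 713 and 2505 CPM in case 5, 6 and 9, against 8251, 8192 and 4597 CPM in control 5, 6 and 10. This sum, of which Hbb was the largest part, was lowest in the libraries where Hsp90ab1 was highest. Taken singly, Epor, Klf1 and Gata1 were instead lowest in control 10. The 10 myeloid markers summed to 9292, 16754 and 20907 CPM in case 5, 6 and 9, against 7301, 20677 and 16502 CPM in control 5, 6 and 10. The 10 osteoblast and bone matrix markers summed to 133685, 68807 and 63762 CPM in case 5, 6 and 9. In control 5, 6 and 10 they summed to 79980, 109893 and 111364 CPM. That sum, too, was lowest in case 6 and case 9. The part of these cells in the Hsp90ab1 value was not tested. Set against the members' own counts, a share that needs no scaling between libraries and was chosen after the levels had been seen, Hsp90ab1 took 34.5%, 39.4% and 39.7% in case 5, 6 and 9, against 33.1%, 33.5% and 34.3% in control 5, 6 and 10. The 95% Wilson intervals of case 5 (34.0 to 35.03%) and control 10 (33.8 to 34.8%) overlapped, though the 6 values did not. The difference of 4.21 percentage points had an exact permutation p (two-sided) of 0.1, the smallest that 3 libraries against 3 allow. After Benjamini-Hochberg adjustment over 10 such shares it was 0.25. Those shares were not separate tests, since Hsp90ab1 is also counted in the share of the Hsp90 class, so the adjusted value cannot serve as support.

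Hsp90aa1, the stress-inducible form of Hsp90, did not follow Hsp90ab1. It was at 39.6, 33.1 and 54.4 CPM in case 5, 6 and 9, against 51.7, 52.1 and 40.8 CPM in control 5, 6 and 10. The highest and the lowest value were both in case, and the log2 fold change was -0.19 (SE 0.21), with -0.037 without case 6 and -0.41 without case 9. RefSeq (GRCr8) lists 23 pseudogenes of Hsp90ab1 and 16 of Hsp90aa1, none of which has a row in the count table, so that both levels may miss reads.

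**Figure D2:**
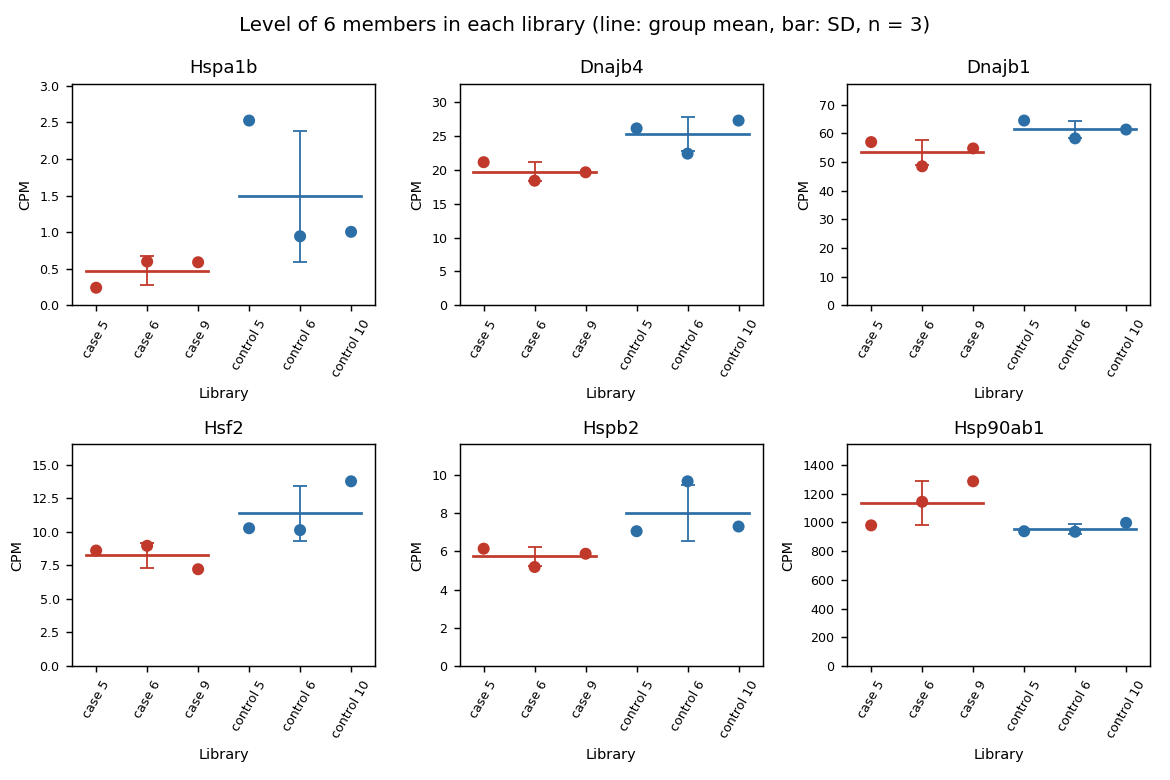
Level in CPM of 6 members in each library, case in red and control in blue, with the group mean as a line and the SD as a bar (n = 3). Hspa1b, Dnajb4, Dnajb1, Hsf2 and Hspb2 have all case libraries below all control libraries under TMM, whereas for Hsp90ab1 case 5 (979 CPM) lies below control 10 (996 CPM).

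The 2 genes of the mitochondrial chaperonin had fold changes close to 0 and groups that overlapped. Hspd1 encodes the Hsp60 barrel and Hspe1 its Hsp10 lid, and the pair shares the promoter stretch printed above. Hspd1 was at 58.7, 65.6 and 84.2 CPM in case 5, 6 and 9, against 84.0, 58.2 and 64.6 CPM in control 5, 6 and 10. Hspe1 was at 16.8, 29.2 and 34.7 CPM in case 5, 6 and 9, against 27.7, 24.4 and 31.4 CPM in control 5, 6 and 10. In case both genes were lowest in case 5 and highest in case 9, while in control the highest library was control 5 for Hspd1 and control 10 for Hspe1. Their log2 fold changes were 0.01 (SE 0.20) and -0.05 (SE 0.27). Of the 16 Hspd1 pseudogene rows 3 were tested, with 138, 196 and 197 counts of Hspd1-ps1 in case 5, 6 and 9 against 141, 158 and 159 in control 5, 6 and 10, and the 13 others had 0 to 19 counts over all libraries. Reads of the gene and of these copies may have been exchanged.

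Small heat shock proteins are holding chaperones, several of them abundant in muscle. Apart from Hspb2, given below, the tested genes varied between single libraries more than between groups. Hspb7, known from heart and muscle, was at 7.97, 11.6 and 28.6 CPM in case 5, 6 and 9, against 4.96, 13.7 and 10.4 CPM in control 5, 6 and 10. Its log2 fold change of 0.72 (SE 0.54) was 0.01 without case 9. Hspb6, the Hsp20 of muscle, was at 15.8, 18.4 and 44.5 CPM in case 5, 6 and 9, against 13.3, 27.9 and 25.1 CPM in control 5, 6 and 10. Case 9 was the highest and control 5 the lowest library in both genes.

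The summed level of the skeletal muscle markers had the same extreme libraries. The 17 markers, all tested, summed to 328, 676 and 1954 CPM in case 5, 6 and 9, against 129, 1729 and 1716 CPM in control 5, 6 and 10, and Myh2 and Ttn had no count in control 5. Taken singly all 17 were lowest in control 5, but 6 were highest in case 9, 5 in control 6 and 6 in control 10. Cryab, the small heat shock gene of muscle and lens that the naming rule of the members does not take, was at 13.2, 17.9 and 68.1 CPM in case and 7.40, 37.6 and 32.1 CPM in control. The part of muscle in these 3 genes was not tested. Hspb2, another muscle-linked small heat shock gene, went a different way, at 6.14, 5.18 and 5.87 CPM in case 5, 6 and 9, against 7.05, 9.66 and 7.30 CPM in control 5, 6 and 10. Its groups did not overlap, and the log2 fold change was -0.48 (SE 0.25) with an unadjusted edgeR p of 0.0865 and -0.30 without control 6.

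Hspb1, the widely made Hsp27, was highest in control 5. It was at 14.03, 23.2 and 35.7 CPM in case 5, 6 and 9, against 54.1, 19.9 and 24.4 CPM in control 5, 6 and 10. The log2 fold change of -0.43 (SE 0.46) became 0.14 without control 5. That library also carried oral epithelium, with 14 of 16 marker genes in the table summing to 65.9 to 109 CPM in case and to 3926, 72.5 and 55.5 CPM in control 5, 6 and 10. Krt14, at 2363 CPM, was the largest part of the control 5 sum. Of these markers only Krt15 was not highest in control 5, where it was lowest, at 0.261 CPM against 3.30 CPM in control 6. The part of these markers in Hspb1 was not tested. Hspb8, the Bag3 partner of chaperone-assisted autophagy, was at 9.49 to 11.9 CPM in case and 9.75, 10.7 and 20.2 CPM in control 5, 6 and 10, so that control 10 stood above the other 5 libraries. Hspb11, a subunit of ciliary transport, had a log2 fold change of 0.22 (SE 0.43), and Hspb3 and Hspb9 had 35 counts and 1 count over all libraries and were not tested.

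**Figure D3:**
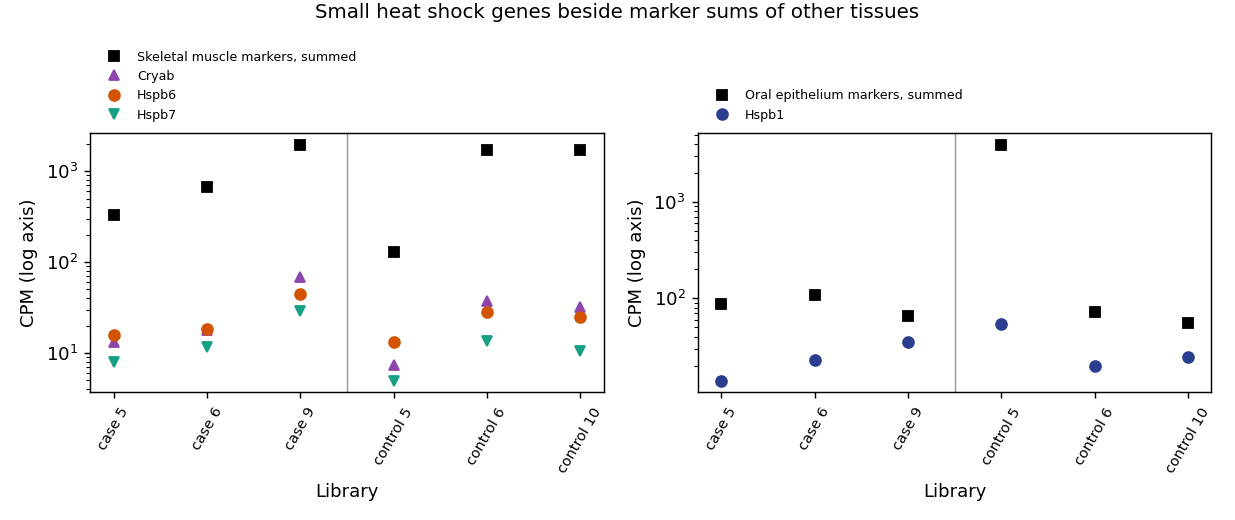
CPM on a log axis in each library: at left Hspb6, Hspb7 and Cryab beside the summed 17 skeletal muscle markers, at right Hspb1 beside the summed oral epithelium markers. The muscle sum and the 3 small heat shock genes peak in case 9 and are lowest in control 5, and the epithelium sum of control 5 (3926 CPM) is far above the other libraries.

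The Dnajb genes, whose products activate Hsp70 and bind clients, had a lower summed level in case under TMM. The difference did not pass the test after adjustment. Summed over 11 genes, Dnajb was at 260, 236 and 243 CPM in case 5, 6 and 9, against 273, 265 and 278 CPM in control 5, 6 and 10. The groups did not overlap, with an exact permutation p (two-sided) of 0.1, the smallest possible, and 0.9 after Benjamini-Hochberg adjustment over 9 sums. Of 9 tested Dnajb genes 8 had a negative log2 fold change, 7 with the size factors of DESeq2 or upper-quartile scaling and 6 with library totals, where the sums also overlapped (246 to 258 CPM in case and 246 to 289 CPM in control). The ratio of Dnajb to Dnajc counts needs no scaling and was chosen after these sums had been seen. It was 34.9%, 32.3% and 34.3% in case 5, 6 and 9, against 38.7%, 35.3% and 36.9% in control 5, 6 and 10. Its exact permutation p (two-sided) was 0.1, with an adjusted value of 0.25 over the 10 shares. The Dnajb share of the members' counts was also among those 10, so they were not separate tests.

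Dnajb4 and Dnajb1, both J proteins of the cytosol tied to the heat shock response, were the 2 of 9 tested Dnajb genes with separate groups. Both were separate and lower in case under TMM, against 4.43% of all tested genes. Dnajb4 was at 21.1, 18.4 and 19.6 CPM in case 5, 6 and 9, against 26.1, 22.4 and 27.3 CPM in control 5, 6 and 10. Its groups did not overlap, and the log2 fold change was -0.36 (SE 0.16) with an unadjusted edgeR p of 0.0587. Dnajb1, the Hsp40 that works with Hspa8 and Hspa1b products, was at 56.9, 48.5 and 54.7 CPM in case 5, 6 and 9, against 64.4, 58.2 and 61.3 CPM in control 5, 6 and 10. Case 5 and control 6 were close to each other, and the log2 fold change was -0.20 (SE 0.13). With library totals in place of TMM both genes kept their sign and their groups overlapped, whereas Hsf2, Hspb2 and Hspa1b stayed separate.

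The other tested Dnajb genes overlapped between the groups. Dnajb2, a J protein with ubiquitin-binding motifs, was at 57.6 to 76.4 CPM in case and at 69.7 to 74.2 CPM in control. Dnajb6, a suppressor of protein aggregation, had 24.6 to 32.1 CPM in case, and its control libraries lay between 29.5 and 29.9 CPM. Dnajb12 and Dnajb14, which sit in the membrane of the endoplasmic reticulum, had log2 fold changes of -0.05 and -0.20, and Dnajb5 -0.0072. Dnajb13, known from cilia and sperm tails, was the one with a positive value, 0.22 (SE 0.54). Dnajb3 stood at 1.13 to 1.51 CPM in case and at 0.958 to 1.89 CPM in control, and Dnajb7 and Dnajb8, known from testis, had 0 counts in all 6 libraries.

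**Figure D4:**
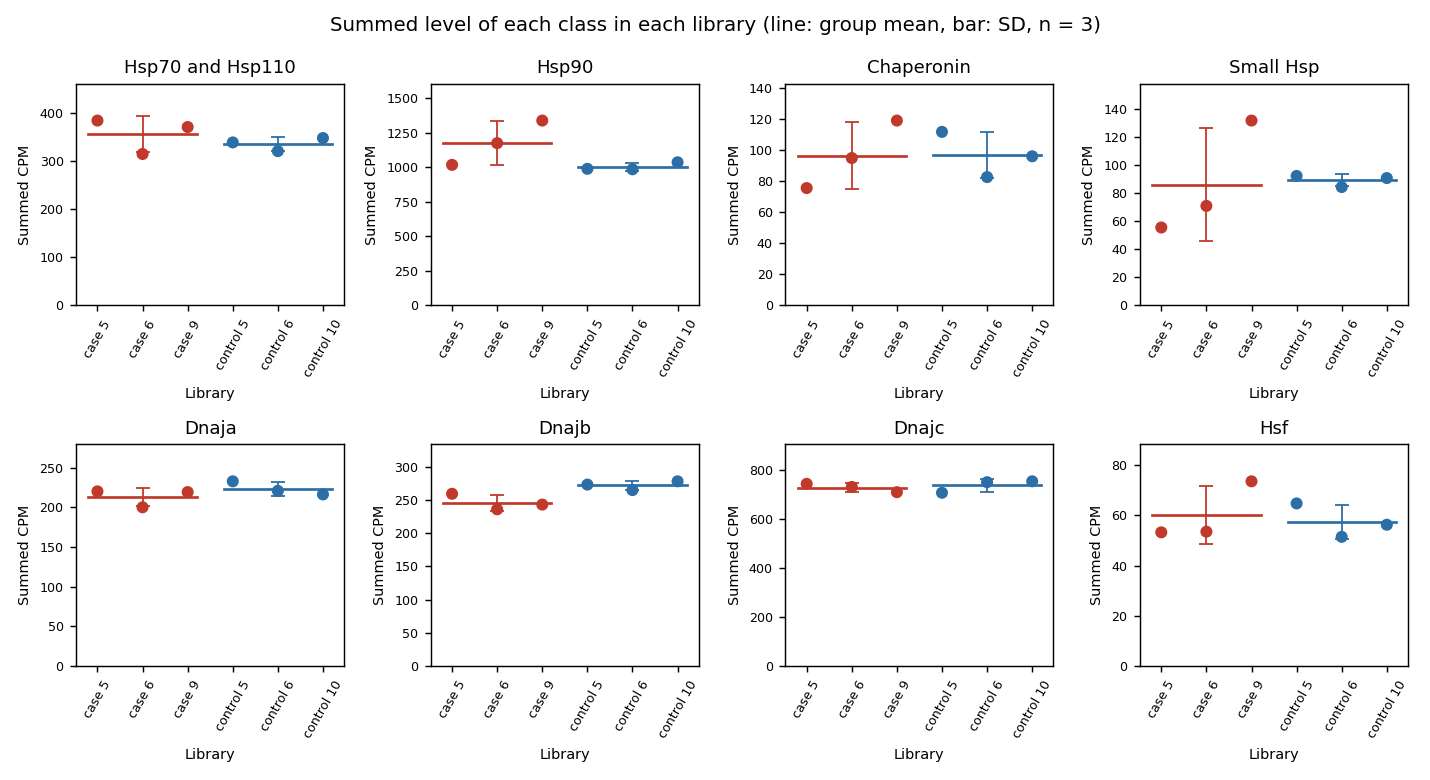
Summed CPM of each of 8 classes in each library, case in red and control in blue, with the group mean as a line and the SD as a bar (n = 3). Under TMM, Dnajb is the one class whose case libraries (236 to 260 CPM) all lie below its control libraries (265 to 278 CPM).

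The Dnaja genes, closest in form to bacterial DnaJ, had overlapping groups and fold changes near 0, with 4 of 4 negative under TMM and upper-quartile scaling and 3 of 4 with the size factors of DESeq2 or library totals. Dnaja1, a main partner of Hspa8, averaged 80.3 ± 11.8 CPM in case and 85.2 ± 2.15 CPM in control, and only case 6, at 67.0 CPM, stood away from the other 5 libraries. Dnaja2 and the mitochondrial Dnaja3 had log2 fold changes of -0.08 and -0.01, with 95% intervals of -0.41 to 0.26 and -0.39 to 0.36. Dnaja4 was high in both libraries numbered 5, at 20.6, 12.5 and 14.6 CPM in case 5, 6 and 9, against 24.5, 15.6 and 12.4 CPM in control 5, 6 and 10.

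The Dnajc genes share little beyond the J domain and serve single tasks, and 0 of 25 tested had separate groups under TMM, against 8.52% of all tested genes, with Dnajc24 separate and higher in case under the DESeq2 size factors and library totals. Their sum was 743, 731 and 709 CPM in case 5, 6 and 9, against 707, 750 and 754 CPM in control 5, 6 and 10, and 9 were positive and 16 negative. Dnajc13, an endosomal sorting protein, was at 75.6, 48.0 and 61.1 CPM in case 5, 6 and 9, against 47.2, 54.7 and 49.3 CPM in control 5, 6 and 10. Case 6 lay among the control values, and the log2 fold change was 0.29 (SE 0.19). It was 0.14 without case 5 and 0.44 without case 6, where Dnajc13 had the one unadjusted edgeR p under 0.05 among the members, 0.047. Dnajc10, an oxidoreductase of the endoplasmic reticulum, was at 73.7, 54.2 and 57.9 CPM in case 5, 6 and 9, against 70.2, 69.6 and 71.2 CPM in control 5, 6 and 10. Its control libraries were nearly level, and case 5 lay above them. Dnajc4 averaged 11.3 ± 1.81 CPM in case and 8.99 ± 2.44 CPM in control, a log2 fold change of 0.32 (SE 0.27) that was 0.14 without control 5 and 0.56 without control 10.

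Other Dnajc genes are given with the libraries in which they were high or low. Dnajc15, a J protein of the inner mitochondrial membrane, was at 7.65, 15.7 and 15.4 CPM in case 5, 6 and 9, against 11.1, 17.9 and 19.7 CPM in control 5, 6 and 10, and was thus lowest in the libraries numbered 5. Dnajc19, its relative at the import motor, had the same low libraries, with 16.2 CPM in case 5 and 14.2 CPM in control 5 and 19.6 to 24.1 CPM elsewhere. Dnajc22 was at 3.83, 6.64 and 4.36 CPM in case 5, 6 and 9, against 2.61, 7.86 and 6.11 CPM in control 5, 6 and 10. Dnajc24, which serves diphthamide synthesis, had the largest positive value of the class at 0.57 (SE 0.41), and its lowest library, control 5, had 15 counts. Dnajc9, a histone chaperone, had the smallest ratio of highest to lowest library among the tested members (1.14), at 37.6 to 41.4 CPM in case and at 39.5 to 42.7 CPM in control. Dnajc7, a scaffold between Hsp70 and Hsp90, had a log2 fold change of 0.06 (SE 0.15). Dnajc5, the cysteine string protein of secretory vesicles, was at 104 to 139 CPM in case and at 110 to 119 CPM in control. Dnajc5b and Dnajc5g, known from testis, had 1 and 0 counts in all. The Dnajc genes not named here had log2 fold changes from -0.23 (Dnajc28) to 0.21 (Dnajc18).

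Hspbap1, named for a protein associated with Hsp27, averaged 10.7 ± 1.90 CPM in case and 8.51 ± 1.40 CPM in control, with case 6 inside the control range and a log2 fold change of 0.32 (SE 0.24), or 0.17 without case 9. Hsf2bp, which binds heat shock factor 2, had 5, 8 and 5 counts in case 5, 6 and 9 against 4, 2 and 9 counts in control 5, 6 and 10 and was not tested.

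**Figure D5:**
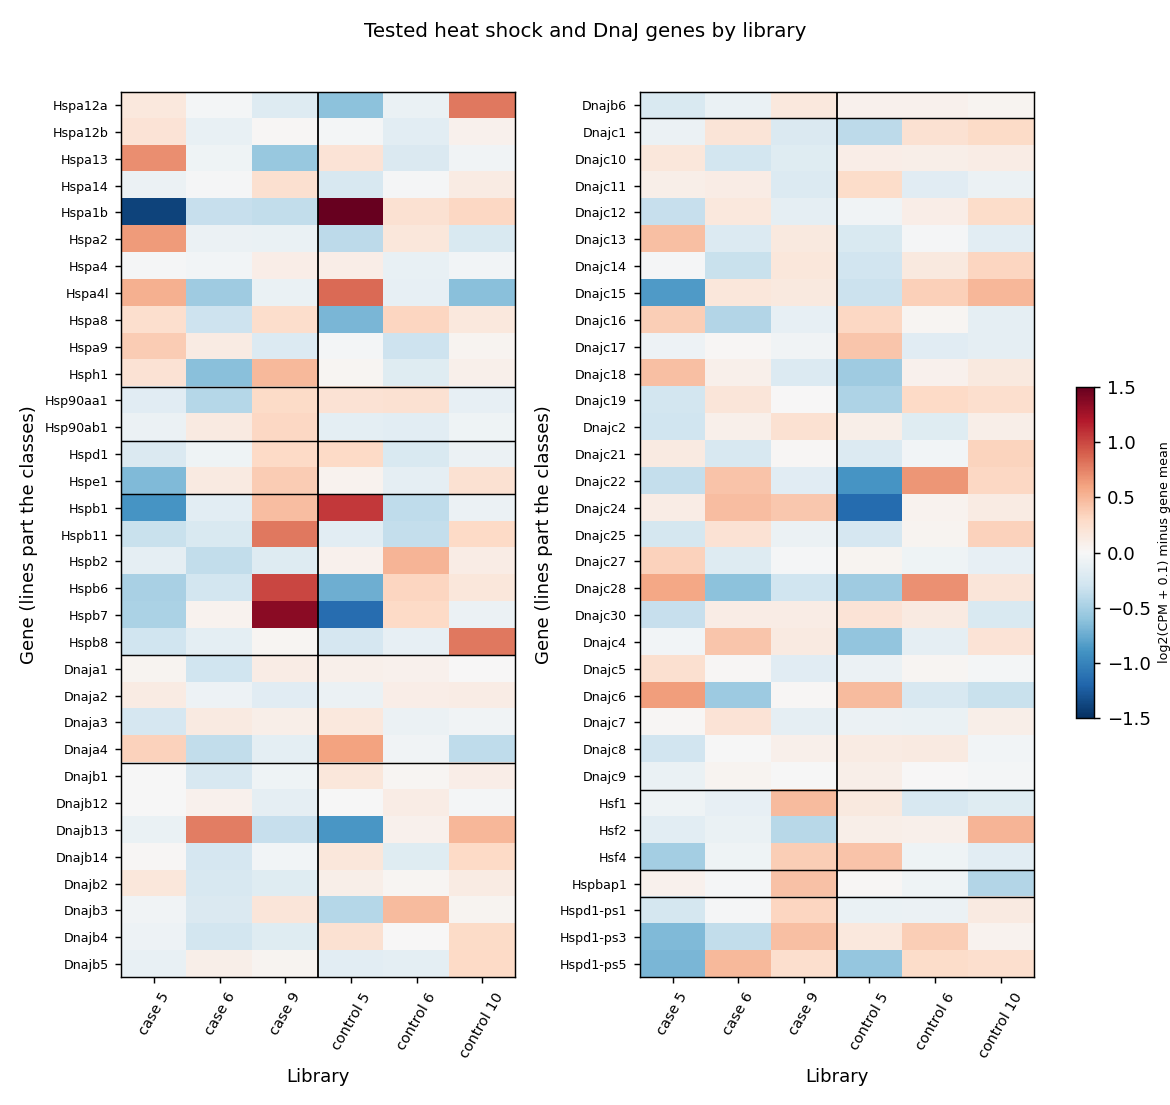
Each tested member (rows, parted by class) in each library (columns, case left of control) as log2(CPM + 0.1) minus the mean of the gene over the 6 libraries, with colours capped at 1.5 either way. Hspa1b is low in case and high in control 5, Hspb6 and Hspb7 are high in case 9, and most other rows show no split at the line between the groups.

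The 13 members known as targets of heat shock factor 1 formed an inducible set. They were Hspa1a, Hspa1b, Hspa4l, Hsph1, Hsp90aa1, Hspd1, Hspe1, Hspb1, Dnaja1, Dnajb1 and Dnajb4, with Hspa8 and Hsp90ab1, which are described above as constitutive. Of 12 tested, 4 had a positive and 8 a negative log2 fold change, with a median of -0.12 against -0.02 over all tested genes, and 0 were called. Hspa1b, Dnajb4 and Dnajb1 were the 3 with separate groups, all lower in case, against 4.43% of all tested genes, and with library totals only Hspa1b of these remained separate. The median was -0.0048 without case 6, -0.20 without case 9 and 0.02 without both libraries numbered 5. The summed level of the set was on average higher in case, at 1371, 1488 and 1768 CPM in case 5, 6 and 9, against 1415, 1341 and 1418 CPM in control 5, 6 and 10. The constitutive Hsp90ab1 was the largest part of that sum. It was at 979, 1143 and 1285 CPM in case 5, 6 and 9, against 938, 934 and 996 CPM in control 5, 6 and 10. The sum therefore gives no direction for the other genes of the set.

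Other genes of the pathway likewise gave 0 calls. Of 35 cochaperones and related genes 33 were in the table and tested, 21 positive and 12 negative, with a median of 0.06. Fkbp5, an Hsp90 cochaperone that glucocorticoids induce, had the smallest unadjusted edgeR p of the list, 0.039, at 78.0, 150.3 and 168 CPM in case 5, 6 and 9, against 56.1, 80.0 and 93.8 CPM in control 5, 6 and 10. Case 5 lay within the control range. Bag2, a nucleotide exchange factor of Hsp70, averaged 8.63 ± 0.840 CPM in case and 12.4 ± 2.65 CPM in control, and Fkbp4, another Hsp90 cochaperone, 129.7 ± 28.2 CPM in case and 102 ± 7.21 CPM in control. The groups of both were separate under TMM, as were those of Bag6, Stip1 and Tomm34, named after their values were seen and all higher in case. Of the 33 genes, 4 were separate and higher in case, against 4.1% of all tested genes. Another 1 was separate and lower, against 4.43%. Stip1 was separate by a narrow gap, with 102.3 CPM in case 5 and 101.8 CPM in control 10. Other scalings were not tried for the separations in these lists. Of the 14 subunits of the cytosolic chaperonin CCT and of prefoldin, 8 were positive and 6 negative with a median of 0.08. Pfdn4, a prefoldin subunit, was the only subunit with separate groups, lower in case, against 4.43% of all tested genes. It had a mean of 14.4 ± 2.02 CPM in case, against 19.1 ± 0.876 CPM in control. Cct8 averaged 109.7 ± 13.9 CPM in case and 95.3 ± 9.14 CPM in control and Pfdn1 36.9 ± 5.74 CPM in case and 45.9 ± 12.8 CPM in control, both with groups that overlapped.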

How the data were processed

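Total RNA isolated with TRIzol was made into single-end libraries with an Ion Total RNA-Seq kit, per the labels' protocols. The authors deposited whole-number counts per gene symbol for 6 libraries, with no normalization so far as the values show. Not given in the sources used here are the aligner, the counting program, the build, the annotation and whether strand was used. Columns were matched to libraries by title.

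Genes were filtered with filterByExpr, scaled by TMM and fitted in edgeR 4.0.16 (R 4.3.3), whose quasi-likelihood test was run with group alone in the design, two-sided, and Benjamini-Hochberg adjustment over all genes tested at a threshold of 0.05. Standard errors are the log2 fold change divided by the root of the F statistic. The common biological coefficient of variation was 0.322. For a gene with no count the limit taken was 3 counts (0.199 to 0.274 CPM by library). Wilson intervals and floors cover counting error only. The test was also run on simulated counts that varied less between libraries than these data. That run does not show how many true changes the test would miss here.

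The members and the 13 gene lists were chosen with earlier results of these data known. Members were named by rule: 14 always given; those at an unadjusted p under 0.05; the 5 with the smallest p in each direction, those with separate groups and the 2 with the widest range in each class, all at a mean of at least 5 CPM. The 3 genes with the smallest p were named from each other pathway list. Further members, and Cryab, were named after their values were seen. Alternatives were other scalings and filters, DESeq2 1.42.0, voom of limma 3.58.1, leaving out libraries, and the title number as a block. Promoters were taken from RefSeq, build GRCr8; that table gave no entry for Hspa1b, Hspb2, Dnajb4, Hsf1 and Hsp90aa1.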

Additional observations from a re-analysis of the deposited data

How the results depend on the processing

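The number of members past the adjusted threshold was 0 under every alternative run, as were those of both lists of other pathway genes. The number at an unadjusted p under 0.05 was 1 in the main analysis and 0 without both libraries numbered 5. With each library left out it was 0 to 1 (0 without case 5, case 9 or control 5). With the title number as a replicate block it was 2 (Hsp90aa1 at -0.52 and Hspa9 at 0.42). That block fit compares the groups within numbers 5 and 6 only, because 9 and 10 each occur in 1 group. The numbers 5 and 6 occur in both groups and nothing says that they pair libraries; deviations from the group means correlated at 0.38 across genes for number 5 and 0.14 for number 6, while unlike numbers reached 0.28 (case 9 with control 6). The median log2 fold change of all tested members was -0.0072 with library totals, 0.010 without both libraries numbered 5 and -0.087 (without case 9) to 0.042 (without control 10) with each library left out. The case minus control difference of the Dnajc sum was 16.8 CPM with library totals, against -9.09 CPM with TMM, and -22.5 to 16.3 CPM with each library left out; that of the chaperonin sum was 20.0 CPM without both libraries numbered 5.

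Of 27 named members tested, 12 changed the sign of their log2 fold change in some setting, in each case with an adjusted p above 0.05. With 1 library left out in turn the ranges were -0.17 to 0.028 for Dnaja1, -0.34 to 0.19 for Dnaja4, -0.49 to 0.21 for Dnajc22, -0.012 to 0.33 for Hsf1, -0.37 to 0.10 for Hsf4, -0.26 to 0.38 for Hspa13, -0.46 to 0.39 for Hspa4l, -0.15 to 0.32 for Hspa8, -0.82 to 0.14 for Hspb1, -0.15 to 0.18 for Hspd1, -0.27 to 0.23 for Hspe1 and -0.13 to 0.38 for Hsph1. Without both libraries numbered 5 the values were -0.13 for Hspa13, -0.20 for Hspa8, 0.083 for Hspa4l, 0.24 for Hspe1, 0.32 for Hsf4 and 0.45 for Hspb1. With the replicate block they were 0.13 for Dnajc22, -0.048 for Hsf1, -0.17 for Hspd1 and -0.13 for Hsph1, and with library totals Hspe1 was at 0.0036. The cause of these changes was not tested. Members under about 1 CPM, Hspa1b among them, rest on few reads.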
